A study of Mus musculus with 48 samples.

Results

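The dopamine receptor family of the mouse has 5 genes, Drd1, Drd2, Drd3, Drd4 and Drd5, and all 5 were found by symbol among the 48795 genes of the count table. Their RNA was followed in the striatum of 48 mice, 8 per genotype with 4 females and 4 males in each. The wild-type (WT) mice, the Msh3+/- mice and the Msh3-/- mice carry no Q140 allele. The Q140 mice carry an expanded-repeat knock-in allele of Htt, the Huntington's disease gene, in the heterozygous state by their labels, and the Q140 x Msh3+/- and Q140 x Msh3-/- mice combine it with loss of 1 or both alleles of Msh3, a DNA mismatch repair gene. All are labelled C57BL/6 and 12 months old; the extraction text puts dissection at 6 months instead, which leaves the age unsettled. Each library is bulk striatum of a separate mouse, and in bulk tissue fewer cells of a type and less RNA per cell cannot be told apart. The comparisons ask what Q140 does to receptor RNA, and how much of that is restored when Msh3 alleles are lost.

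Dopamine receptors are G protein-coupled receptors of 2 classes. The D1 class (Drd1 and Drd5) stimulates adenylyl cyclase, in striatum through the G protein subunit encoded by Gnal, and so raises cyclic AMP. The D2 class (Drd2, Drd3 and Drd4) inhibits it through Gi and Go proteins. Spiny projection neurons, the inhibitory output neurons and the most numerous striatal cells, express Drd1 where they belong to the direct pathway and Drd2 where they belong to the indirect pathway; cholinergic interneurons express Drd2 and Drd5, Drd3 is concentrated in the ventral striatum and the islands of Calleja, and Drd4 is known chiefly from cortex and retina.

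Library totals lay between 38.9 and 60.9 M counts (M, 1e6), with a median of 47.3 M. A group of 4 libraries stood apart along the main axis of variation left after genotype and sex (robust z over 3; 9.29% of that variation): Q140 x Msh3+/- female 1, Msh3-/- female 1, Msh3-/- male 1 and Q140 x Msh3-/- male 1. Results that change without these 4 libraries are given with and without them. Levels are given as CPM, counts per 1e6 after TMM scaling. Msh3 RNA itself went from a mean of 29.0 CPM in WT mice to 73.9 CPM with 1 allele and 122 CPM with both alleles labelled as lost, which goes up with each allele said to be lost, so every genotype name below is the label's and each direction drawn for Msh3 rests on it. Genes of the spiny neurons were abundant in every group: 8 shared markers of both pathways summed to 9054 CPM in WT (8567 to 9407 CPM, n = 8).

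Drd1 (ENSMUSG00000021478) lies on GRCm38 chromosome 13, 54051183 to 54055705, minus strand, 38.2 Mb from Msh3 on the same chromosome. Drd2 (ENSMUSG00000032259) lies on chromosome 9, 49340627 to 49408177, plus strand, Drd3 (ENSMUSG00000022705) on chromosome 16, 43754026 to 43822932, plus strand, and Drd4 (ENSMUSG00000025496) on chromosome 7, 141292006 to 141296464, plus strand. Drd5 (ENSMUSG00000039358), a gene of a single exon, lies on chromosome 5, 38319367 to 38322518, plus strand, 3.41 Mb from Htt. A predicted gene on the opposite strand, Gm26560, overlaps Drd5, and the strand setting of the counting is not given in the sources used here, so some reads of the pair may be misassigned; Gm25996 lies within Drd3 on the same strand.

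The bases before a RefSeq start of Drd1, Drd2, Drd5 and Drd3 follow, and their part in the RNA changes below was not tested. They are from RefSeq's GRCm38.p6 table, which matched all 5 receptors, and each is the part of the 250 bases before a RefSeq start (for Drd1, the upstream of 2) that no annotated exon of the gene covers. For Drd3 that start lies 8195 bases inside the gene as placed above, so its stretch is internal to the gene and not upstream of its outer start. Capitals mark GGGCGG, the core of the GC box bound by Sp1-type factors, on either strand.
Drd1, chr13:54055706-54055908, minus strand: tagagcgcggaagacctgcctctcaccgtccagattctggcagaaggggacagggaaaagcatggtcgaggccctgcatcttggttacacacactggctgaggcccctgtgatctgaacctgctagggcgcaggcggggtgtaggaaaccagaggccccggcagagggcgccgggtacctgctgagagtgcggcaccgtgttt
Drd2, chr9:49340153-49340402, plus strand: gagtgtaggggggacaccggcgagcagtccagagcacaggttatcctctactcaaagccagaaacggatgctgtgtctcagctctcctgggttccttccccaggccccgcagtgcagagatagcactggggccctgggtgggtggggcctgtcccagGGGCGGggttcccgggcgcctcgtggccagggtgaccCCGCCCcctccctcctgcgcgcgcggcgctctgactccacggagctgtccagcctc
Drd5, chr5:38319259-38319366, plus strand: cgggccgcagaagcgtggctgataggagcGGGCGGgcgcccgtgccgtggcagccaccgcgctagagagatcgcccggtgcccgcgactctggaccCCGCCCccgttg
Drd3, chr16:43761971-43762207, plus strand: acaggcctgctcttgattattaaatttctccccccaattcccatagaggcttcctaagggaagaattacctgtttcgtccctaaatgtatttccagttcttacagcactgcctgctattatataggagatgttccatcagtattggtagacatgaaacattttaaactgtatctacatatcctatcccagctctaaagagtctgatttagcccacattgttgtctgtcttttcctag
In the whole 300-base window around the start, G and C made up 65.7% for Drd1, 70.3% for Drd2, 70.3% for Drd5 and 42.0% for the internal start of Drd3, against a median of 52.7% over 32851 windows. The Drd2 and Drd5 windows each held 2 copies of GGGCGG and the Drd1 window held 1, downstream of the stretch shown, while the internal Drd3 window had 0. The Drd4 window, whose bases are not shown, had 58.0% G and C and 3 copies. The window of the second Drd1 start, also not shown, had 59.3% and 1 copy. The motif occurred in 35.7% of all windows. Neither TGACG, the core of a cyclic AMP response element (20.8% of windows), nor TATAAA (13.6% of windows) was present on either strand in these windows.

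In WT striatum the receptors formed 2 tiers. On the per-length scale of the deposited FPKM (reads or fragments scaled by gene length and library total), the level of Drd2 averaged 188 and that of Drd1 91.9, while Drd3 stood at 1.80, Drd5 at 1.28 and Drd4 at 0.0400. Drd1 and Drd2 together made up 98.2% to 99.2% of summed receptor FPKM in any of the 48 mice. Drd2 exceeded Drd1 in 8 of 8 mice of every genotype on that scale. The FPKM values imply a length of 1549 bases for Drd2, shorter than the 2547 exonic bases of GENCODE M21; with M21 lengths the WT levels were 114 for Drd2 and 89.3 for Drd1, and the order was kept in every mouse. Drd3 exceeded Drd5 in 7 or 8 mice of each genotype, and the ranges of these neighbours overlapped in 5 of the 6 genotypes, Q140 being the exception.

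**Figure D1:**
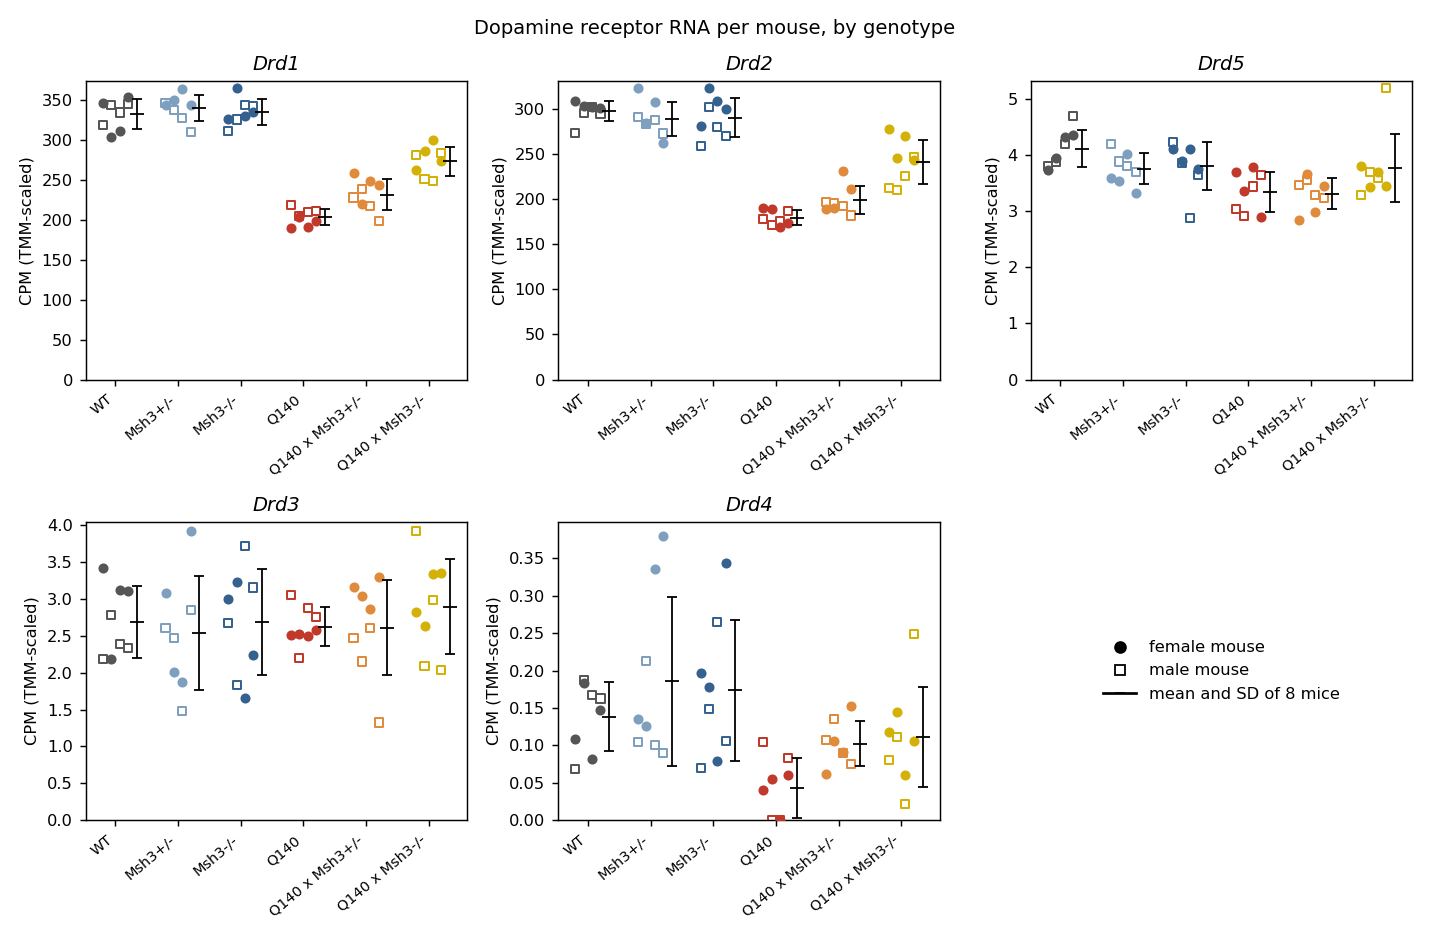
TMM-scaled CPM (y axis, from 0) of Drd1, Drd2, Drd5, Drd3 and Drd4 by genotype (x axis); each point is a mouse, filled circles female and open squares male, and bars give mean and SD of 8 mice. The Q140 points of Drd1 (189 to 218 CPM) and Drd2 (169 to 190 CPM) lie below every WT point. The 8 Q140 x Msh3-/- points of Drd1 lie in between, as do 7 of 8 for Drd2, and Drd3 shows no such steps.

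Q140 mice had less Drd1, Drd2 and Drd5 RNA than WT mice. Of the 4 receptors with enough counts to test, these 3 fell and Drd3 was not called; 33% of the 19714 genes tested were called in this comparison, and 16% fell, so a call by itself is common here. Drd1 ranged from 303 to 353 CPM (median 339) in WT mice and from 189 to 218 CPM (median 204) in Q140 mice. The ranges did not overlap, and all 8 Q140 mice were below all WT mice. The log2 change was -0.71 (SE 0.0417, edgeR adjusted p = 9.58e-20), at percentile 3.10 of the changes of all genes, and the mean CPM fell by 38.8%.

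Drd2 ranged from 273 to 309 CPM (median 301) in WT and from 169 to 190 CPM (median 177) in Q140 mice, again with no overlap. Its log2 change was -0.73 (SE 0.0428, edgeR adjusted p = 7.64e-20), and the mean CPM fell by 39.8%. The 2 receptors that define the opposing output pathways thus fell by nearly the same amount. With total counts in place of TMM the changes were -0.64 and -0.66.

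Drd5, the D1-class receptor of cholinergic interneurons, had a mean of 4.12 ± 0.332 CPM in WT mice and of 3.35 ± 0.357 CPM in Q140 mice (SD, n = 8). WT values ran from 3.74 to 4.70 CPM and Q140 values from 2.91 to 3.79 CPM, so that 7 of 8 Q140 mice were below the lowest WT mouse. The log2 change was -0.30 (SE 0.0832, edgeR adjusted p = 0.00377). It lost the call in females alone (-0.25, adjusted p = 0.128), in males alone (-0.35, adjusted p = 0.0787) and with a term for the prefix of the sample names (-0.30, adjusted p = 0.138). The prefix fit draws nothing from the 15 of 48 libraries that have a prefix of their own. Of 6 markers of cholinergic interneurons, 3 fell and 1 rose, beside 16% and 17% of all genes; Chat and Slc18a3 fell by 0.22 and 0.31 on the log2 scale and Isl1 rose by 0.25. Their summed level was 156 to 178 CPM in the WT group and 141 to 157 CPM in the Q140 group, and its part in the Drd5 change was not tested.

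Drd3 and Drd4 rest on few reads. Drd3 gave 53 to 194 counts a library, with a mean of 2.69 ± 0.483 CPM in WT mice and of 2.62 ± 0.262 CPM in Q140 mice (SD, n = 8). The WT range of 2.18 to 3.42 CPM held every Q140 mouse (2.20 to 3.05 CPM). The log2 change was -0.02 (SE 0.160, edgeR adjusted p = 0.924), with a 95% interval from -0.35 to 0.30, so that a change of the size of Drd1's lies outside the interval while one like Drd5's does not. Drd3 was called in 0 of 13 contrasts by edgeR, with 0 at an unadjusted p under 0.05, and in 0 of 13 under each alternative tried, DESeq2 among them.

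Drd4 had 0 to 17 counts a library and did not pass the filter on low counts. Summed over 8 mice it had 53 counts in WT and 17 in Q140, with 3 Q140 libraries at 0, and all 8 Q140 mice were below the WT mean. Scaled for depth, the WT sum was 3.31 times the Q140 sum, with an exact 95% counting interval from 1.88 to 6.09 that leaves out variation between mice. A fit with no filter, among 34244 genes, gave a log2 change of -1.65 (SE 0.496, edgeR adjusted p = 0.0114). The sums were 68 counts in Msh3+/-, 60 in Msh3-/-, 42 in Q140 x Msh3+/- and 43 in Q140 x Msh3-/-; the last 2 were 2.48 times (1.38 to 4.64) and 2.64 times (1.48 to 4.94) the Q140 sum.

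Loss of Msh3 alleles in mice with no Q140 allele left the receptors without a call. By edgeR, 0 of 4 tested receptors passed in Msh3+/- minus WT (0.0101% of all genes did) and 0 of 4 in Msh3-/- minus WT (0.0457%), and 0 had an unadjusted p under 0.05. The Drd1 mean was 340 ± 16 CPM with 1 allele lost and 334 ± 16.1 CPM with both lost, beside 332 ± 18.5 CPM in WT (SD, n = 8). Drd2 averaged 289 ± 19.2 CPM and 290 ± 21.4 CPM, beside 298 ± 10.9 CPM. The 95% intervals of the log2 difference ran from -0.05 to 0.12 and from -0.07 to 0.10 for Drd1, and from -0.13 to 0.04 and from -0.12 to 0.05 for Drd2. Drd5 averaged 3.76 ± 0.281 and 3.82 ± 0.429 CPM, with log2 differences of -0.13 (SE 0.0830, edgeR adjusted p = 0.981) and -0.11 (SE 0.0832, edgeR adjusted p = 0.850).

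**Figure D2:**
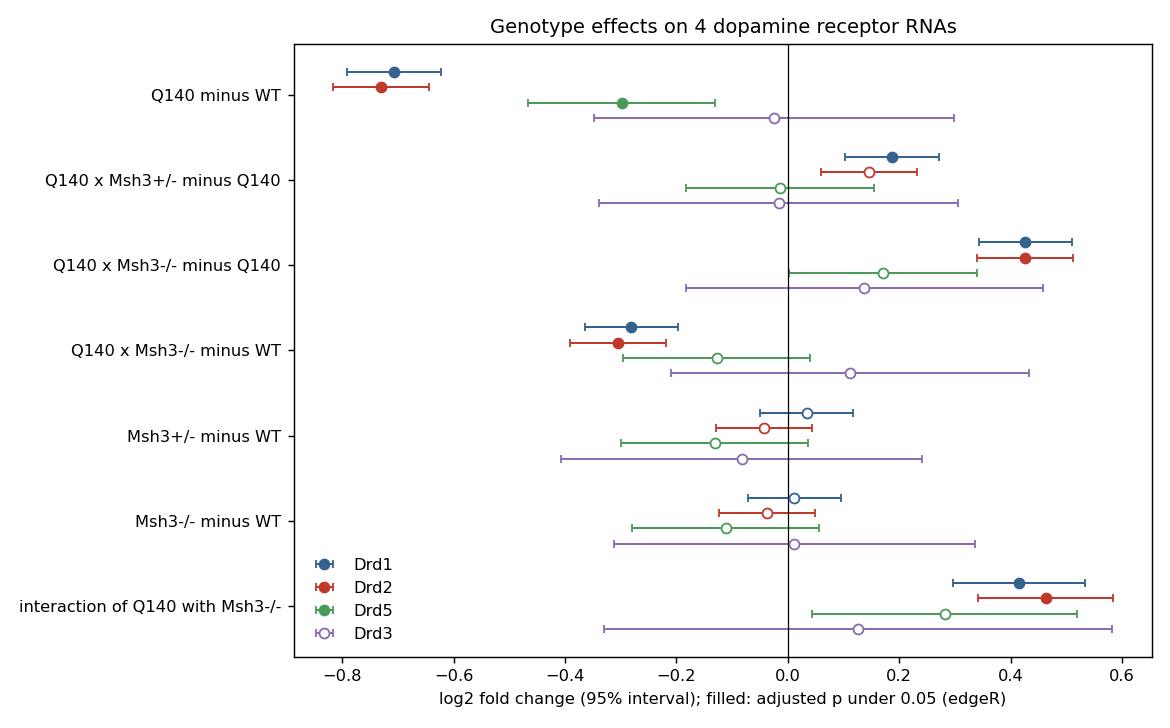
Log2 fold change (x axis) with its 95% interval for Drd1, Drd2, Drd5 and Drd3 in 7 contrasts (rows); filled points have an edgeR adjusted p under 0.05. Drd1 and Drd2 lie left of 0 in Q140 minus WT (-0.71 and -0.73) and right of 0 in Q140 x Msh3-/- minus Q140 (0.43 and 0.43). In Msh3+/- minus WT (0.03 and -0.04) and in Msh3-/- minus WT (0.01 and -0.04) they lie on opposite sides of 0, without a call.

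Drd1 and Drd2 were higher in Q140 mice that had lost both Msh3 alleles than in Q140 mice. In Q140 x Msh3-/- minus Q140, these 2 of the 4 tested receptors were called, where 8.75% of all genes rose. Drd1 ranged from 248 to 299 CPM (median 277), above all 8 Q140 mice and below all 8 WT mice. Its log2 rise over Q140 was 0.43 (SE 0.0416, edgeR adjusted p = 2.46e-11). Drd2 ranged from 210 to 278 CPM (median 245), above all 8 Q140 mice, with 7 of 8 below the lowest WT mouse. Its rise was 0.43 (SE 0.0427, edgeR adjusted p = 5.18e-11).

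Restoration was partial. Against WT, Drd1 in Q140 x Msh3-/- mice was lower by a log2 difference of -0.28 (SE 0.0414, edgeR adjusted p = 2.89e-06) and Drd2 by -0.31 (SE 0.0425, edgeR adjusted p = 8.91e-07); 2 of 4 tested receptors were called, beside 3.37% of all genes lower. Against Msh3-/- mice, which share the Msh3 genotype, the differences were -0.29 for Drd1 (edgeR adjusted p = 1.54e-06) and -0.27 for Drd2 (edgeR adjusted p = 1.43e-05), where 3.84% of genes were lower. In females alone, the Drd2 differences lost the call (-0.23 against WT, adjusted p = 0.0876, and -0.22 against Msh3-/-, adjusted p = 0.0844).

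Losing 1 Msh3 allele gave a smaller step. In Q140 x Msh3+/- minus Q140, 1 of 4 tested receptors, Drd1, was called, beside 0.842% of all genes higher. Drd1 ranged from 198 to 258 CPM (median 233), with 6 of 8 mice above every Q140 mouse, and its log2 rise was 0.19 (SE 0.0416, edgeR adjusted p = 0.00898). That call was lost in males alone (0.07, adjusted p = 1.0) and with the name prefix as a term (0.28, adjusted p = 0.106). Drd2 ranged from 182 to 231 CPM (median 194), also with 6 of 8 mice above every Q140 mouse, and its difference of 0.15 missed the threshold (SE 0.0426, edgeR adjusted p = 0.0684; 95% interval 0.06 to 0.23). DESeq2 (adjusted p = 0.0363) and the fit without the 4 libraries that stood apart (0.16, edgeR adjusted p = 0.0410) called it, as did leaving out Q140 x Msh3+/- female 2 (0.16), Q140 x Msh3+/- male 4 (0.16) or Q140 male 4 (0.16).

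The heterozygous crosses stayed well below WT, by a log2 difference of -0.52 for Drd1 (edgeR adjusted p = 1.55e-14), -0.59 for Drd2 (edgeR adjusted p = 7.67e-16) and -0.31 for Drd5 (edgeR adjusted p = 0.0040), 3 of 4 tested receptors where 11.3% of genes were lower. The Drd5 difference lost its call in females alone (-0.34, adjusted p = 0.0678), in males alone (-0.29, adjusted p = 0.194) and with the name prefix as a term (-0.26, adjusted p = 0.205). Against Msh3+/- mice, Drd1 and Drd2 were called, 2 of 4, where 10.8% of genes were lower (-0.55 and -0.54). Losing the second allele added 0.24 to Drd1 (SE 0.0415, edgeR adjusted p = 0.000153) and 0.28 to Drd2 (SE 0.0426, edgeR adjusted p = 1.95e-05), 2 of 4 tested where 2.29% of genes were higher. The step from Q140 x Msh3+/- to Q140 x Msh3-/- for Drd1 lost the call in females alone (0.21, adjusted p = 0.0685).

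For Drd1 and Drd2 the Q140 x Msh3+/- mean lay between those of Q140 and Q140 x Msh3-/-. Its log2 distance from that midpoint was -0.03 (SE 0.0360) for Drd1 and -0.07 (SE 0.0370) for Drd2, and 0 of 4 tested receptors were called by edgeR (0.00507% of genes were; 0 had an unadjusted p under 0.05). The interaction of Q140 with Msh3-/-, which compares the Q140 effect on the Msh3-/- background with that on the WT background, was 0.41 for Drd1 (SE 0.0586, edgeR adjusted p = 1.63e-06) and 0.46 for Drd2 (SE 0.0602, edgeR adjusted p = 2.85e-07), 2 of 4 tested where 4.09% of genes were higher. For Msh3+/- it was 0.15 (edgeR adjusted p = 0.392) and 0.19 (edgeR adjusted p = 0.269), neither of them called, where 0.0152% of genes were.

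Drd5 was not called in either cross against Q140. It averaged 3.32 ± 0.279 CPM in Q140 x Msh3+/- mice, beside 3.35 ± 0.357 CPM in Q140 mice (SD, n = 8; log2 difference -0.01, SE 0.0838, edgeR adjusted p = 0.964). In Q140 x Msh3-/- mice it ranged from 3.29 to 5.21 CPM (median 3.65), overlapping both Q140 and WT. The log2 difference from Q140 was 0.17 (SE 0.0834, edgeR adjusted p = 0.167) and from WT -0.13 (SE 0.0829, edgeR adjusted p = 0.433), so its level there was not told apart from either.

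The share restored was taken as the rise of a cross over Q140 divided by the fall of Q140 below WT, both on the log2 scale, with a Fieller 95% interval; the Q140 mice stand in both terms. For Drd1 it was 26.2% (14.7% to 37.0%) with 1 allele lost and 60.2% (49.5% to 71.2%) with both lost. For Drd2 it was 19.8% (8.01% to 30.7%) and 57.9% (47.3% to 68.7%). The intervals of the 2 receptors overlapped at each dose of Msh3. The intervals for 1 and for both alleles lost did not overlap for either receptor.

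With each cross set against its own Msh3 background, so that the 2 Q140 effects share no mice, the shares were 21.3% and 58.4% for Drd1 and 26.0% and 63.2% for Drd2. Single mice spread widely: with both alleles lost they ran from 41.3% to 79.1% for Drd1 and from 31.2% to 86.4% for Drd2, and with 1 allele lost from -4.55% to 49.0% and from 2.96% to 50%. For Drd5 the share was -4.25% (-87.9% to 40.5%) and 54.7% (4.38% to 108%), too wide to rank beside the others. The second value rests on a single mouse: without Q140 x Msh3-/- male 4 it was 31.8% (-18.9% to 73.5%). It was 27.8% in females alone and 93.2% on matched Msh3 backgrounds.

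**Figure D3:**
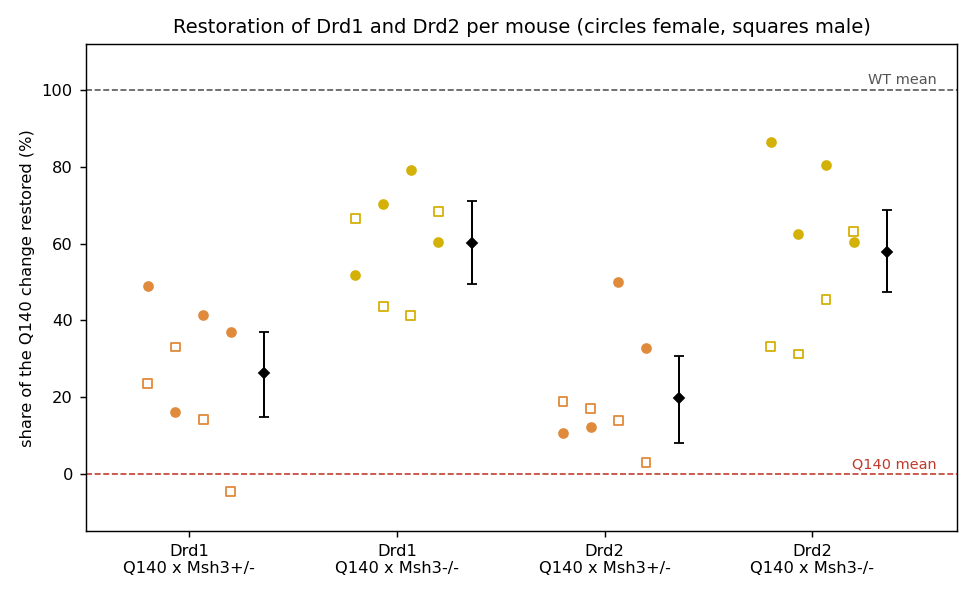
Share of the Q140 change restored (y axis, %) for Drd1 and Drd2 in the 2 Q140 crosses (x axis); points are mice (circles female, squares male), diamonds with bars are the share and its 95% interval, and dashed lines mark the Q140 mean at 0 and the WT mean at 100. The shares sit at 26.2% and 60.2% for Drd1 and at 19.8% and 57.9% for Drd2.

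Restoration was also compared between the sexes. With both alleles lost, the log2 rise over Q140 was 0.52 in females and 0.34 in males for Drd1, and 0.52 and 0.33 for Drd2. The test of the sex difference gave unadjusted p of 0.0228 for Drd1 and 0.0276 for Drd2 and an adjusted p of 1.0 for each, and edgeR called 0 genes of 19714. The female and male shares were 69.3% and 50% for Drd1, and 69.2% and 45.9% for Drd2. With 1 allele lost they were 41.3% (27.1% to 55.1%) and 9.31% (-9.07% to 25.1%) for Drd1. For Drd2 they were 24.3% (5.05% to 41.5%) and 15.0% (-0.177% to 28.5%), with intervals that overlapped. The sex difference with 1 allele lost was not tested. The fall in Q140 minus WT was -0.75 in females and -0.67 in males for Drd1 and -0.75 and -0.71 for Drd2 (unadjusted p = 0.301 and 0.659).

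The balance of the 2 main receptors was examined as log2(Drd1 counts / Drd2 counts) in each mouse, a measure that needs no scaling between libraries. It averaged 0.15 ± 0.0892 in WT, 0.18 ± 0.0972 in Q140, 0.22 ± 0.108 in Q140 x Msh3+/- and 0.18 ± 0.138 in Q140 x Msh3-/- mice (SD, n = 8). Msh3+/- mice had 0.23 ± 0.0878 and Msh3-/- mice 0.21 ± 0.0894 (SD, n = 8). The ranges of all 6 genotypes overlapped. The Q140 minus WT difference was 0.02 (SE 0.0466; 2-sided exact permutation p = 0.609, adjusted 0.849), and among 10 comparisons the smallest adjusted p was 0.849. The ratio thus differed by 0.02 between genotypes in which the Drd1 mean fell by 38.8% and the Drd2 mean fell by 39.8%.

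**Figure D4:**
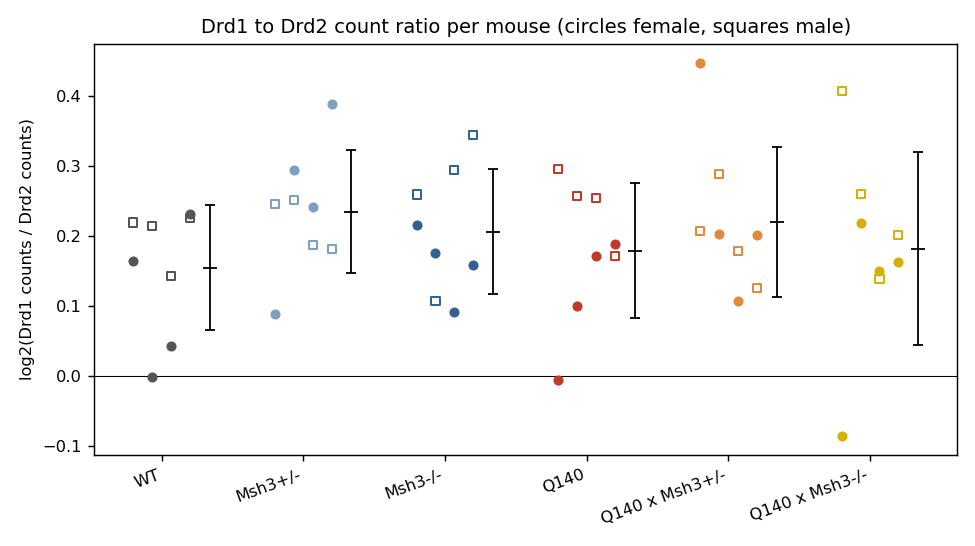
Log2 ratio of Drd1 to Drd2 counts (y axis) in each mouse by genotype (x axis), circles female and squares male, with mean and SD of 8 mice. All 6 groups overlap, with means between 0.15 and 0.23.

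Genes whose level followed Drd1 most closely over the 48 libraries, among 13833 whose log2 CPM averaged 1 or more, were Pde10a (Pearson r = 0.97), Arpp21, Scn4b, Ppp4r4 and Adcy5 (r = 0.97). For Drd2 they were Bcr (r = 0.97), Chn1, Cap1, Anks1b and Penk (r = 0.97). These values mostly reflect steps between genotypes, and libraries also share their scaling, so they are descriptions. Drd2 took rank 44 in the list for Drd1 (r = 0.94).

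After genotype and sex were removed, the nearest genes to Drd1 were Foxo1, a forkhead transcription factor (r = 0.79), Zswim6, Tbc1d8, Arpp21 and Rasgef1a (r = 0.68). Genes near to Drd2 included Cap1, a cyclase-associated actin regulator (r = 0.77), Gnao1, Clspn and Anks1b (r = 0.73). Between mice of the same genotype and sex, Drd1 and Drd2 were less alike (r = 0.37), with Drd2 at rank 574 for Drd1 and Drd1 at rank 976 for Drd2.

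The neurons that carry each receptor were described by other genes of their pathway. For each list below, the share of all tested genes was 16% lower and 17% higher in Q140 minus WT, 8.75% higher and 7.57% lower in Q140 x Msh3-/- minus Q140, and 0.842% higher in Q140 x Msh3+/- minus Q140. Of 5 tested indirect-pathway genes beside Drd2, 4 fell in Q140 mice and 0 rose, with a median log2 change of -0.75 (all genes, -0.0041). Penk, the enkephalin precursor, fell by 1.33, Adora2a, an adenosine receptor, by 1.0 and Gpr6 by 0.75. In Q140 x Msh3-/- minus Q140, all 5 rose (median 0.41), with Penk at 0.76, Adora2a at 0.64 and Gpr6 at 0.41, and 3 of 5 rose in Q140 x Msh3+/- minus Q140.

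Direct-pathway genes beside Drd1 were mixed. Of 7 tested, 3 fell and 3 rose in Q140 mice, with a median of -0.10 (all genes, 16% lower and 17% higher). Chrm4, the M4 muscarinic receptor, fell by 0.79, close to Drd1, while Isl1, a transcription factor of the pathway, and Eya1 rose by 0.25 and 0.34. The lists share some genes. Isl1 is also among the cholinergic markers above, and Pde10a, Rgs9 and Ppp1r1b stand both among the shared genes and in lists below. In Q140 x Msh3-/- mice 3 of 7 rose over Q140, among them Chrm4 (0.54) and Slc35d3 (0.23), and the median was 0.0019. Of the 8 genes shared by both pathways, 8 fell in Q140 mice (median -0.41) and 8 rose in Q140 x Msh3-/- over Q140 (median 0.28), Pde10a by 0.51, Rgs9 by 0.49 and Ppp1r1b by 0.44.

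Downstream of the D1 class, 4 of 6 genes of the stimulatory G protein and cyclase fell in Q140 mice and 0 rose, where 16% of all genes fell and 17% rose. The adenylyl cyclase gene Adcy5 fell by 0.83, Gng7, a G protein gamma subunit, by 0.31 and Ric8b, a chaperone of the Gnal product, by 0.24. The same number, 4 of 6, rose in Q140 x Msh3-/- over Q140 (all genes, 8.75%), Adcy5 by 0.52, Gng7 by 0.25 and Ric8b by 0.16. Of 5 tested phosphodiesterases that break down striatal cyclic nucleotides, 4 fell (median -0.47), Pde10a by 0.98, Pde1b by 0.60 and Pde7b by 0.47, and 4 rose in Q140 x Msh3-/- over Q140 (median 0.29).

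Of 8 genes of the D2-class inhibitory G proteins and the potassium channels they open, 1 fell and 3 rose in Q140 mice (median 0.08), where 16% of all genes fell and 17% rose. Gnao1, the Go alpha subunit, fell by 0.18, while Gnai1, a Gi alpha subunit, and Kcnj3, a channel subunit, rose by 0.23 and 0.19. In Q140 x Msh3-/- over Q140, 1 of 8 rose, Gnao1 by 0.09, and 0 fell, where 8.75% of all genes rose and 7.57% fell. Among 12 genes of protein kinase A and DARPP-32 signalling, 5 fell and 4 rose in Q140 mice (median -0.08); Ppp1r1b, which encodes DARPP-32, fell by 0.77, the calcineurin subunit Ppp3ca by 0.54 and the phosphatase Ppp1ca by 0.40, and in Q140 x Msh3-/- over Q140 4 rose and 4 fell.

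Of 11 receptor kinases, arrestins and RGS proteins, which end receptor signalling, 6 fell and 3 rose in Q140 mice (median -0.14), where 16% of all genes fell and 17% rose. Rgs9 fell by 0.83, Rgs4 by 0.84 and Rgs7bp, the membrane anchor of Rgs9, by 0.50, and 5 of 11 rose in Q140 x Msh3-/- over Q140 (all genes, 8.75%). Of 8 receptor-binding proteins, 4 fell and 0 rose (median -0.13), led by the spine scaffold Ppp1r9b (-0.64), Dlg4 (-0.31) and Epb41l1 (-0.16), and 4 rose in Q140 x Msh3-/- over Q140. Of 9 genes of dopamine synthesis, storage and breakdown, 2 fell and 1 rose (median 0.03), shares close to those of all genes. Th, the rate-limiting enzyme of dopamine synthesis, fell by 0.31, Qdpr fell by 0.17 and Maoa, which breaks down monoamines, rose by 0.18. In Q140 x Msh3-/- over Q140, 0 of these 9 were called by edgeR.

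**Figure D5:**
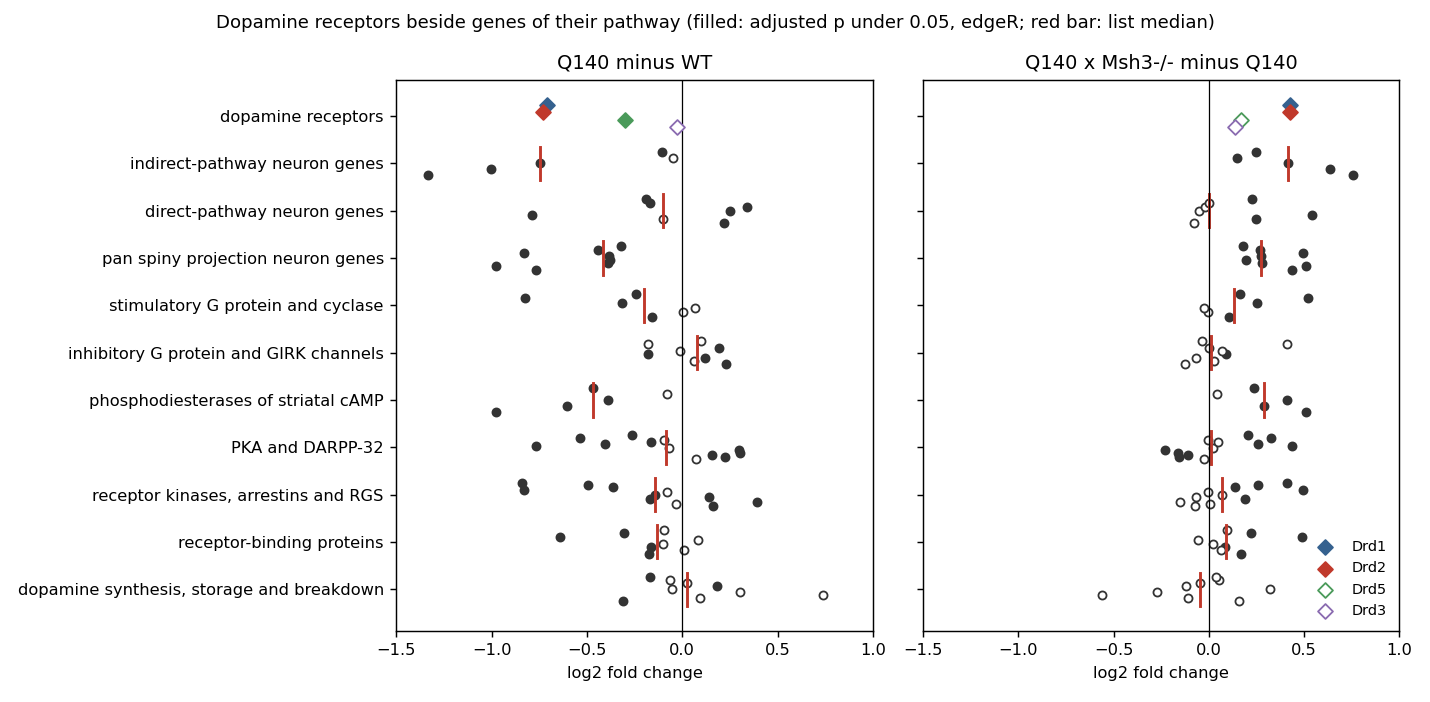
Log2 fold change (x axis) of the tested receptors (diamonds) and of each gene in 10 pathway lists (circles, rows), for Q140 minus WT and Q140 x Msh3-/- minus Q140; filled symbols have an edgeR adjusted p under 0.05 and red bars are list medians. Indirect-pathway genes (median -0.75) and phosphodiesterases (median -0.47) lie left of 0 on the left and right of 0 on the right (0.41 and 0.29).

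Markers of other cell types moved too. In Q140 minus WT, 6 of 6 endothelial markers fell, as did 4 of 6 astrocyte, 3 of 6 microglial and 2 of 6 oligodendrocyte markers, and 0 of these rose, where 16% of all genes fell and 17% rose. Calls in every list are under TMM scaling. The lists were not called again with total counts, which gave 5773 genes higher and 2064 lower in Q140 minus WT. Of 8 cortical neuron markers, which include genes absent from spiny neurons, 2 rose and 1 fell in that comparison, shares close to those of all genes, and 1 rose in Q140 x Msh3-/- over Q140 (median 0.62; all genes, 8.75% higher). Their summed level was 46.0 to 59.7 CPM in Q140 and 50.3 to 129 CPM in Q140 x Msh3-/- mice, where Q140 x Msh3-/- female 2 was highest; 7 of 8 were detected in every library and 0 were at 0 throughout. Without that mouse, the rise over Q140 was 0.42 for Drd1 and 0.43 for Drd2. Q140 x Msh3-/- female 3 (74.4 CPM), male 3 (73.7 CPM) and male 4 (63.7 CPM) were also above every Q140 mouse in the cortical sum. High sums were not particular to this cross. The cortical sum ran from 47.1 to 63.0 CPM in WT, 45.4 to 126 CPM in Msh3+/-, 45.5 to 86.7 CPM in Msh3-/- and 47.1 to 68.8 CPM in Q140 x Msh3+/- mice. The part of cortical RNA in the receptor changes was not tested. The summed shared markers of spiny neurons ranged from 5339 to 5943 CPM in Q140 and from 6462 to 8121 CPM in Q140 x Msh3-/- mice. Their part in the receptor changes was not tested.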

How the data were processed

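Whole-number counts per gene for 48 libraries were deposited by the authors, made with STAR 2.7.5c, SAMtools 1.10 and HTSeq 0.12.3 on GRCm38 (mm10) per the submitters' processing notes; neither the annotation release nor the strand setting is given in the sources used here. The authors also deposited FPKM values, which restate the counts per length and library total. Genes passing edgeR's filterByExpr (minimum count 10) were tested, 19714 of 48795. edgeR 4.0.16 (R 4.3.3) was fitted to all 48 libraries with genotype and sex, TMM scaling and the robust quasi-likelihood test (41 residual degrees of freedom), with Benjamini-Hochberg adjustment over every tested gene (threshold 0.05). Total counts in place of TMM moved the Q140 minus WT split from 3358 higher and 3148 lower to 5773 and 2064. The fit was also run on simulated data in which a small set of genes changed in Q140 alone, as many up as down. That simulation cannot test the scaling where many genes change, as they do here. DESeq2 1.42.0 and limma 3.58.1 on log2(FPKM + 0.1) and log2(FPKM + 1) were alternatives, and exact permutation tests used scipy 1.17.1. The receptors are always named; from each list up to 3 members past the threshold with the smallest p are named, as are the 5 genes most like Drd1 and Drd2, apart from a gene that is not reported here. The members and lists were chosen with earlier results of these data known. Groups, sexes and replicate numbers came from the titles; same-numbered mice did not deviate together (mean correlation -0.0137 over 120 pairs), so the numbers do not pair mice. Each library is labelled as a separate mouse.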

Additional observations from a re-analysis of the deposited data

Results flagged for a closer look

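Among 36 groups of 8 mice, 3 held a value far from the other 7; chance alone flags about 1 group in 20. The lowest of the WT mice for Drd2 was male 1 at 273 CPM, while the other 7 lay between 295 and 309 CPM. The lowest of the Msh3-/- mice for Drd5 was male 3 at 2.88 CPM, beside 3.64 to 4.24 CPM in the others. The highest of the Q140 x Msh3-/- mice for Drd5 was male 4 at 5.21 CPM, beside 3.29 to 3.81 CPM in the others; without that mouse the share of the Drd5 change restored was 31.8% in place of 54.7%.

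The effect of Q140 differed between the Msh3-/- and the WT background in a test of that difference for Drd1 (interaction 0.41 on the log2 scale, edgeR adjusted p = 1.63e-06) and for Drd2 (0.46, edgeR adjusted p = 2.85e-07). All 8 Q140 mice were below all 8 WT mice for each receptor. All 8 Q140 x Msh3-/- mice were below the Msh3-/- mean for each receptor. For Drd1 all 8 were also below every Msh3-/- mouse, while for Drd2 6 of 8 were and the ranges overlapped.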

How the results depend on the processing

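Over 59 results, 825 of 885 alternatives kept the direction and, where tested, the side of the threshold, or moved an untested value by less than the spread between mice. The falls of Drd1 and Drd2 in Q140 minus WT, their rises in Q140 x Msh3-/- minus Q140 and their interactions with Msh3-/- were called under each alternative run, with log2 ranges of -0.78 to -0.63, -0.78 to -0.66, 0.34 to 0.52, 0.33 to 0.52, 0.35 to 0.48 and 0.40 to 0.53. Alternatives without the libraries that stood apart, and those leaving out single libraries, were chosen after seeing the data.

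For Q140 x Msh3+/- minus Q140, Drd1 lost its call with the name prefix as a term (0.28) and in males alone (0.069). Drd2 gained one with DESeq2 (0.15), total counts (0.15), limma on log2(FPKM + 0.1) (0.15) and log2(FPKM + 1) (0.15), and without the 4 libraries that stood apart (0.16); leaving out single libraries gave 0.12 to 0.16. Drd5 in Q140 minus WT lost its call with the name prefix (-0.30), in females (-0.25) and in males (-0.35), and Drd5 in Q140 x Msh3+/- minus WT lost it under the same 3 settings (-0.26, -0.34 and -0.29). The sex-specific fits hold 4 mice a group, and the name prefix leaves 15 residual degrees of freedom. In the prefix fit, 15 of 48 libraries have a prefix of their own and so add nothing to a genotype difference. Among these are Q140 female 3, female 4, male 1, male 3 and male 4, and WT female 3, female 4 and male 1. Every value with the name prefix as a term thus rests on fewer mice than the full groups. Beyond that the cause of the lost calls was not tested.

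Some differences that were called under none of the settings run with a test changed sign. Drd1 did so in males for Msh3+/- minus WT (-0.016) and Msh3-/- minus WT (-0.014), and for the midpoint with the name prefix (0.041) and in females (0.051). Drd5 in Q140 x Msh3+/- minus Q140 was 0.036 with the name prefix, 0.062 in males, 0.014 without the libraries that stood apart and -0.043 to 0.016 leaving out single libraries (above 0 at 0.016, 0.0051, 0.013, 0.015 and 0.0033), and in Msh3-/- minus WT it was 0.030 with the name prefix. Its share restored with 1 allele lost was 39.1% on matched backgrounds, 17.6% in males and -15.7% to 5.62% leaving out single libraries (above 0 at 5.62%, 2.31%, 3.23%, 4.66% and 1.51%). The log2 ratio of Drd1 to Drd2 turned in males for Q140 x Msh3+/- minus Q140 (-0.045), Q140 x Msh3-/- minus Q140 x Msh3+/- (0.052), Q140 x Msh3+/- minus WT (-0.00063) and Q140 x Msh3-/- minus Msh3-/- (0.00027), and in females for Q140 x Msh3-/- minus Q140 (-0.0024). Drd3 in Q140 minus WT was 0.044 with total counts, 0.17 in males, 0.045 and 0.028 by limma on log2(FPKM + 0.1) and log2(FPKM + 1), and -0.073 to 0.018 leaving out single libraries. Drd3 in Q140 x Msh3+/- minus Q140 was 0.33 with the name prefix, 0.080 with plate column, 0.29 in females and -0.060 to 0.075 leaving out single libraries (above 0 at 0.016, 0.075, 0.028, 0.015 and 0.0042).

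With the replicate number as a block, Q140 minus WT gave -0.71 for Drd1 and -0.73 for Drd2, and no call of a receptor changed. Among same-sex mice of other genotypes, 14 of 48 mice correlated best with one of their own number. The number expected by chance was not computed. Mean correlations were -0.0137 for same-numbered and -0.0258 for differently numbered mice of the same sex. Depth limits Drd3, Drd4 and Drd5, whose libraries hold at most 194, 17 and 260 counts.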
